A study of Homo sapiens with 4 samples.

Results

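The genes described here are 38 genes of the NF-kB pathway and of the cytokines and chemokines it controls: interleukins and an interleukin receptor, colony-stimulating factors, chemokines, NF-kB subunits, their inhibitors, and other genes induced by tumour necrosis factor or NF-kB. They were taken as a list of gene symbols, each matched to the probe sets that carry that symbol and no other. Of the 38 genes, 36 had such a probe set, 67 probe sets in all, and these 36 stand among 19775 genes with one. CSF2 and BIRC3 had none, so they have no expression value here and enter the promoter search alone. Where a gene had several, the one with the highest mean level stands for it, called the brightest below. A gene was kept for counting when it reached 4.77 on at least 1 array, the 40th percentile of all values and called the filter level below. This left 34 of the 38 genes among 15082 genes in all. CXCL5 and CXCL6 lay under that level on every array. CCL2 and CCL20 reached it on the siRNA arrays alone, so a difference between the controls was built into their being kept.

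All RNA came from MDA-MB-231, an established human breast carcinoma line. The stable ZEB2 knockdown carried an shRNA against ZEB2, and its control carried the vector pLVTH. For the transient ZEB2 knockdown, cells received a pool of siRNAs against ZEB2, and the control cells received siRNA against luciferase, both at 20 nM with washing after 24 hours and harvest 48 hours later. Each of the 4 groups was measured on 1 Affymetrix U133 Plus 2 array. With a single array a group, the differences below carry no error of their own, and this small number of arrays sets their precision. The shRNA cultures are called the stable pair and the siRNA cultures the transient pair. The labels do not say whether each stable culture was 1 clone or a pool. Values are log2 expression values, and a difference of 1 is 2-fold. Where a gene's differences are given as a couple of numbers, they are those of the stable pair and then of the transient pair.

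NF-kB is a family of dimeric transcription factors held in the cytoplasm by inhibitor proteins of the IkB class. Signals such as interleukin-1 or tumour necrosis factor lead to the destruction of these inhibitors, and the freed dimers enter the nucleus and switch on cytokine, chemokine and adhesion genes. Among the induced genes are the inhibitors themselves, which close the loop. In triple-negative breast carcinoma lines the pathway is known for a high basal output of interleukin-6 and interleukin-8. ZEB2, the gene lowered in this study, encodes a zinc-finger repressor that binds E-box sequences.

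ZEB2 read 3.52 in the shRNA knockdown and 6.12 in its control, and 3.51 in the siRNA knockdown and 6.56 in its control. Array medians lay between 5.34 and 5.37. The markers VIM, CD44, EGFR, KRT8 and KRT18, listed as high in this line, all reached the filter level. Their summed level lay between 14.81 and 14.96 on the 4 arrays. VIM, between 13.64 and 14.12, was the largest part of that sum, so the sum says little of the others. CDH1, which MDA-MB-231 is known to express little of, read 4.26 in the shRNA knockdown and 3.54 in its control, but 8.35 in the siRNA knockdown and 7.37 in its control. ESR1, also listed as low in this line, lay between 6.08 and 6.54, above the filter level on every array, and PGR was under it. EGFR read 10.86 in the shRNA knockdown and 10.59 in its control, and 11.84 in the siRNA knockdown and 11.66 in its control. For CDH1 and EGFR both siRNA arrays thus lay above both shRNA arrays. Between the controls the difference was 3.83 for CDH1 and 1.07 for EGFR. The leukocyte marker PTPRC lay between 3.44 and 3.87, under the filter level on every array. CD14, a monocyte marker, read 4.98 in the shRNA knockdown and 5.21 in its control, against 6.94 in the siRNA knockdown and 7.30 in its control. The 4 leukocyte markers with a probe set, of 6 listed, summed to 6.89 in the shRNA knockdown, 7.12 in its control, 7.81 in the siRNA knockdown and 7.93 in its control. The 4 fibroblast markers summed to 8.59 in the shRNA knockdown, 8.20 in its control, 9.39 in the siRNA knockdown and 9.47 in its control. LUM among them read 6.80 in the shRNA knockdown and 2.92 in its control, and 8.71 in the siRNA knockdown and 8.99 in its control. The 3 endothelial markers summed to between 6.54 and 7.49. The part of other cell types in the results was not tested.

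**Figure D1:**
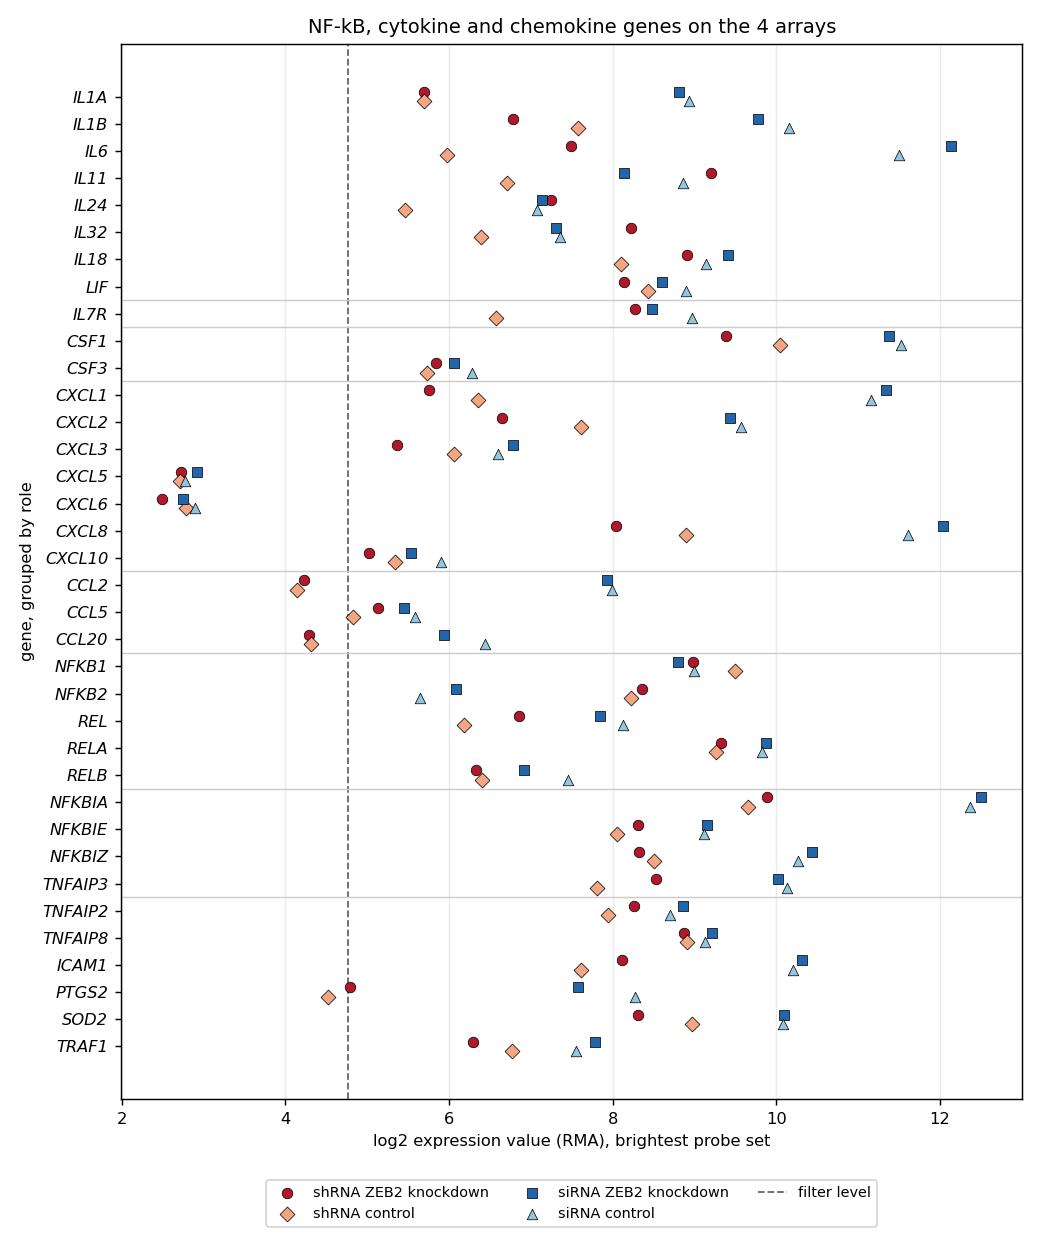
Log2 expression value (RMA) of the 36 members with a probe set, in rows grouped by role, on the 4 arrays; the dashed line is the filter level of 4.77. In most rows the siRNA arrays lie to the right of the shRNA arrays, while NFKB2 runs the other way and CXCL5 and CXCL6 stay left of the line.

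The stable knockdown was set against its vector control to see which of these genes differ when ZEB2 is kept low. The interleukin genes IL11, IL32, IL24 and IL6 and the receptor gene IL7R read at least 2-fold higher in the shRNA knockdown, while the CXC chemokine genes read lower by less than 2-fold. These 5 were 14.7% of the 34 genes kept, against 2.39% of all genes, and 0 members were at least 2-fold lower, against 2.08%. The members were chosen with earlier results of these data known, so a share above that of all genes is no independent evidence. At 1.5-fold, 8 members (23.5%) were higher and 7 (20.6%) lower. All genes at that size made up 7.55% higher and 7.11% lower. The median difference of the members was 0.073, against -0.024 for all genes.

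In the transient pair 0 members reached 2-fold, where 0.0464% of all genes were higher and 0.126% lower. At 1.5-fold IL6 was higher, and IL11 and PTGS2 were lower, beside 0.69% and 1.51% of all genes. The median difference of the members was -0.062, and that of all genes was -0.018. The highest and lowest members differed by 0.63 and -0.71. Of the 34 members, 9 were above 0 in both pairs, 9 below 0 in both (26.5% each), and the other 16 had opposite signs. Over all genes 20.6% were above 0 in both pairs and 27.8% below, so the members lay near the shares of all genes.

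**Figure D2:**
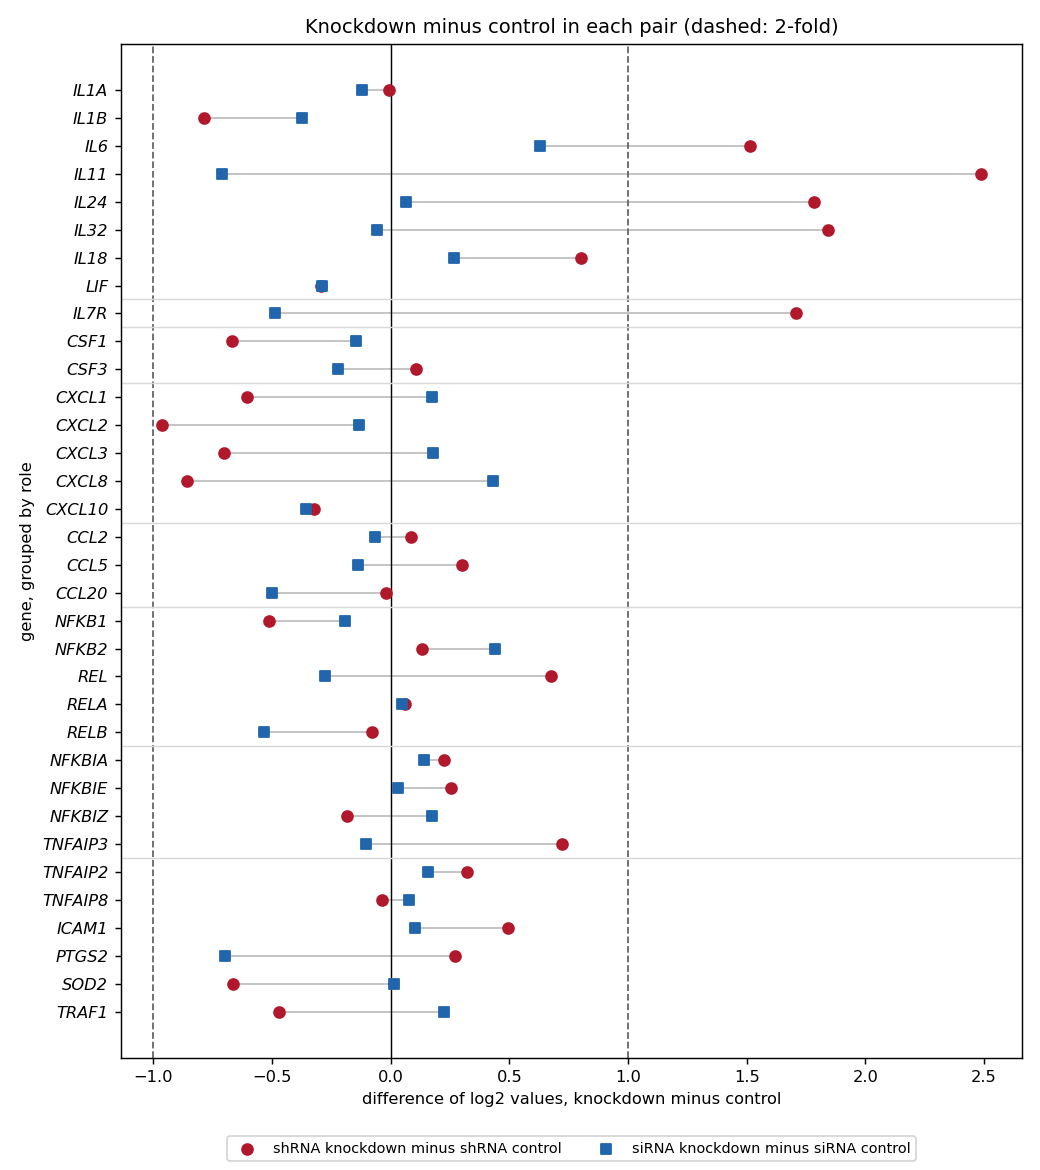
Difference of log2 values, knockdown minus control, for the 34 members kept, with the stable pair as circles and the transient pair as squares; dashed lines mark 2-fold. IL11, IL32, IL24, IL7R and IL6 pass the right line in the stable pair, and no square passes either line.

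IL11 encodes a cytokine of the interleukin-6 family that signals through the shared receptor chain gp130. It read 9.20 in the shRNA knockdown and 6.72 in its control, and 8.14 in the siRNA knockdown and 8.85 in its control. The difference was 2.49 in the stable pair, or 5.61-fold, the 48th highest of 15082 genes, and -0.71 in the transient pair. The shRNA control was the lowest of the 4 arrays and the shRNA knockdown the highest. The other IL11 probe set gave 1.06 in the stable pair and 0.0033 in the transient pair, so the negative value rested on 1 of the 2.

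IL6, whose product acts through the same receptor chain, read 7.50 in the shRNA knockdown and 5.98 in its control. In the siRNA cultures it read 12.14 in the knockdown and 11.51 in the control. It was higher in both knockdowns, by 1.52 and by 0.63, and was the only member above 1.5-fold the same way in both pairs. Both siRNA arrays lay far above both shRNA arrays. IL6 has 1 probe set in the list, so no second one could be set beside it.

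IL24, a cytokine of the interleukin-10 family, read 7.25 in the shRNA knockdown and 5.46 in its control, a difference of 1.78. On the siRNA arrays it read 7.14 in the knockdown and 7.07 in the control. IL32, which encodes a pro-inflammatory cytokine, read 8.23 in the shRNA knockdown and 6.39 in its control, a difference of 1.84. The siRNA knockdown read 7.31 and its control 7.36. For both genes the shRNA control was the lowest of the arrays, and the transient pair differed by 0.065 for IL24 and -0.057 for IL32.

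IL7R, the receptor chain shared by interleukin-7 and thymic stromal lymphopoietin, read 8.28 in the shRNA knockdown and 6.57 in its control. The siRNA knockdown read 8.48 and its control 8.97. The difference was 1.71 for the brightest probe set and above 2-fold for the second as well, and both were below 0 in the transient pair. Its ligand gene IL7 went the other way in the stable cultures, at 3.39 in the shRNA knockdown and 5.68 in the control, a value under the filter level after knockdown.

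The interleukin-1 family did not share a direction in the stable pair. IL1B read 6.79 in the shRNA knockdown and 7.58 in its control, and 9.78 in the siRNA knockdown and 10.15 in its control, differences of -0.79 and -0.37. Its second probe set gave -0.69 and -0.19. IL1A, the other ligand of the same receptor, read 5.69 in the shRNA knockdown and 5.70 in its control, and 8.81 in the siRNA knockdown and 8.93 in its control. IL18, which the inflammasome processes, was higher by 0.80 and 0.27. It read 8.91 in the shRNA knockdown and 8.11 in its control, and 9.41 in the siRNA knockdown and 9.14 in its control. LIF, a gp130 cytokine like IL6 and IL11, differed by -0.30 and -0.29.

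Both colony-stimulating factor genes measured lay close to their controls or below them. CSF1, the growth factor of macrophages, read 9.38 in the shRNA knockdown and 10.05 in its control, and 11.38 in the siRNA knockdown and 11.52 in its control. Its probe sets disagreed. The second brightest differed by -0.70 in the stable pair, another by 0.13. CSF3, the granulocyte factor, stayed between 5.73 and 6.28 on the 4 arrays.

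CXCL1, CXCL2, CXCL3, CXCL5, CXCL6 and CXCL8 encode chemokines that draw neutrophils through the receptors CXCR1 and CXCR2, and CXCL10 encodes an interferon-induced ligand of CXCR3. All 5 CXC genes kept read lower in the shRNA knockdown, with differences between -0.96 and -0.32 and a median of -0.70. Of all 15082 genes, 8030 were below 0 in that pair, and CXCL10 did not reach 1.5-fold. In the transient pair 3 were above 0 and 2 below, with a median of 0.18. CXCL8, which encodes interleukin-8, read 8.04 in the shRNA knockdown and 8.90 in its control, and 12.04 in the siRNA knockdown and 11.61 in its control. Its second probe set differed by -0.71 and 0.12. CXCL1 read 5.76 in the shRNA knockdown and 6.36 in its control, and 11.34 in the siRNA knockdown and 11.16 in its control. CXCL2 read 6.65 in the shRNA knockdown and 7.62 in its control, and 9.44 in the siRNA knockdown and 9.57 in its control. CXCL3 differed by -0.70 and 0.18, and CXCL10 by -0.32 and -0.36. CXCL1, CXCL2 and CXCL3 are close copies of one another, and the bright CXCL2 probe set is of a type that can read related genes, so these 3 may not be independent readings. With the mean of its 3 probe sets, of which 2 were under the filter level, CXCL2 differed by -0.38 in the stable pair.

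These chemokine genes lie side by side on chromosome 4, in the order CXCL8, CXCL6, CXCL1, CXCL5, CXCL3 and CXCL2, with PF4V1, PF4 and PPBP among them, and they were not read alike. CXCL8, CXCL1, CXCL3 and CXCL2 were above the filter level on every array. CXCL6 lay between 2.49 and 2.90, and CXCL5 between 2.71 and 2.92. The probe sets of CXCL5 and CXCL6 are others than those of CXCL1, so the order of levels between genes is that of probe set values, not of RNA amounts.

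**Figure D3:**
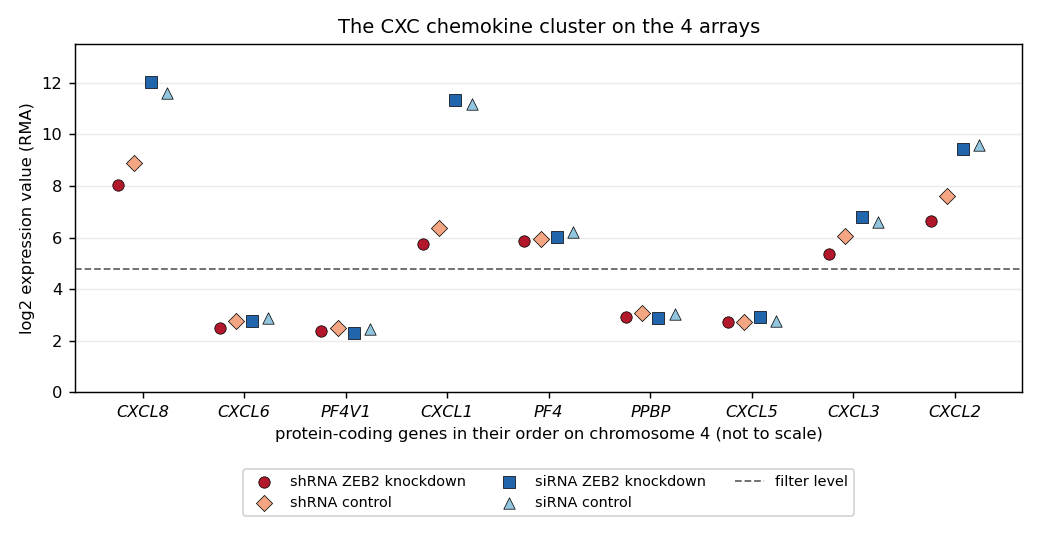
Log2 expression value (RMA) of the 9 genes from CXCL8 to CXCL2 in their order on chromosome 4, with 4 arrays per gene and the filter level dashed. CXCL8, CXCL1 and CXCL2 are far higher on the siRNA arrays than on the shRNA arrays, and CXCL6, PF4V1, PPBP and CXCL5 are under the line on every array.

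The promoters of these neighbours are shown because these genes are neighbours and 5 of the 6 hold the same NF-kB site. Each stretch runs from 150 to 41 bases before the transcription start on the gene's own strand, from RefSeq on GRCh38.p14. Capitals mark matches to the NF-kB consensus on either strand. In CXCL8, where that consensus had no full match in the window, they mark the AP-1 motif TGANTCA. The CXCL8 stretch does hold the letters ggaatttcc, a part of the site in the other 5, left in lower case. The search therefore does not show that CXCL8 lacks an NF-kB site.
CXCL1 (chr4:73869243-73869352, plus strand): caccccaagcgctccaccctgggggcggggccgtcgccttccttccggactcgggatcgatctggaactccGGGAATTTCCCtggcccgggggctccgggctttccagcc
CXCL2 (chr4:74099236-74099345, minus strand): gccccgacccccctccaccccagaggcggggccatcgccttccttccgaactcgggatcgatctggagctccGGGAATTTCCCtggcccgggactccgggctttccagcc
CXCL3 (chr4:74038730-74038839, minus strand): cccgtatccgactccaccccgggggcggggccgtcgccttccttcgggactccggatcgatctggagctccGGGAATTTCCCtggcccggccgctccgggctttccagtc
CXCL5 (chr4:73998718-73998827, minus strand): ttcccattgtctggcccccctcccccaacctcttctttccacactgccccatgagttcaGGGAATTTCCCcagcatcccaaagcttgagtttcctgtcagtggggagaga
CXCL6 (chr4:73836528-73836637, plus strand): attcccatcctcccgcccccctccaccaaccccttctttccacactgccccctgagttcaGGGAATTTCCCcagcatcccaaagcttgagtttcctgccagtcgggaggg
CXCL8 (chr4:73740419-73740528, plus strand): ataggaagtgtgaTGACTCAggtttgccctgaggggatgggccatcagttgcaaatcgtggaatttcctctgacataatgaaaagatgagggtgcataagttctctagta

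The NF-kB match began 79 bases before the start in CXCL1 and CXCL3, 78 in CXCL2, 91 in CXCL5 and 90 in CXCL6. Its letters were the same in all 5 genes and matched on both strands, 1 base apart. Over the site and 20 bases on each side, CXCL1 was identical to CXCL3 at 46 of 50 bases and to CXCL2 at 42, but to CXCL5 and CXCL6 at 22. CXCL5 and CXCL6 were identical to each other at 49. The flanking letters therefore formed 2 groups, CXCL1, CXCL2 and CXCL3 in one and CXCL5 and CXCL6 in the other.

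None of the 3 CC chemokine genes reached 1.5-fold between knockdown and control by its brightest probe set, with CCL20 the farthest from 0 at -0.50 in the transient pair. CCL2, which draws monocytes, read 4.23 in the shRNA knockdown and 4.15 in its control, under the filter level, and 7.93 in the siRNA knockdown and 7.99 in its control. CCL20, the ligand of CCR6, read 4.29 in the shRNA knockdown and 4.31 in its control, and 5.94 in the siRNA knockdown and 6.44 in its control. CCL5, which draws T cells, differed by 0.30 and -0.14. Its next probe set gave -0.65 in the stable pair, at 3.60 in the shRNA knockdown and 4.25 in its control, both under the filter level. The direction of CCL5 there depended on the probe set, and this dim reading is uncertain.

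None of the 5 NF-kB subunit genes reached 2-fold in either pair, and REL, higher in the stable knockdown, was the only one at 1.5-fold. NFKB1, the precursor of p50, differed by -0.51 in the stable pair and -0.19 in the transient pair. RELA, the p65 subunit, differed by 0.062 and 0.047. REL, which encodes c-Rel, read 6.86 in the shRNA knockdown and 6.18 in its control, and 7.85 in the siRNA knockdown and 8.12 in its control. All 5 REL probe sets were above 0 in the stable pair. Those reaching the filter level differed by between 0.53 and 0.69. The others, under it on every array, differed by 0.18 and 0.77. RELB, a subunit of the non-canonical pathway, read 6.33 in the shRNA knockdown and 6.40 in its control, and 6.92 in the siRNA knockdown and 7.45 in its control. NFKB2, the precursor of p52 and partner of RELB, read 8.36 in the shRNA knockdown and 8.23 in its control, and 6.09 in the siRNA knockdown and 5.65 in its control.

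The feedback genes differed little within each pair, TNFAIP3 aside. NFKBIA, which encodes the inhibitor IkB alpha, read 9.88 in the shRNA knockdown and 9.66 in its control, and 12.51 in the siRNA knockdown and 12.37 in its control. NFKBIE, the gene of IkB epsilon, read 8.31 in the shRNA knockdown and 8.05 in its control, and 9.15 in the siRNA knockdown and 9.12 in its control. These values show little distance within each pair. NFKBIZ, which encodes a nuclear IkB protein, read 8.32 in the shRNA knockdown and 8.50 in its control, and 10.44 in the siRNA knockdown and 10.27 in its control. TNFAIP3, which encodes the ubiquitin-editing enzyme A20, had the largest difference of them in the stable pair, 0.72. It read 8.53 in the shRNA knockdown and 7.81 in its control, and its second probe set differed by 0.85. In the transient pair TNFAIP3 read 10.02 in the knockdown and 10.13 in the control.

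Other induced genes went both ways. PTGS2, the gene of the prostaglandin-forming enzyme cyclooxygenase-2, read 7.57 in the siRNA knockdown and 8.27 in its control, a difference of -0.70. Its second probe set gave -0.67. In the stable cultures PTGS2 lay at the filter level, at 4.79 in the knockdown and 4.52 in the control. SOD2, a mitochondrial antioxidant enzyme, read 8.31 in the shRNA knockdown and 8.97 in its control, and 10.10 in the siRNA knockdown and 10.08 in its control. ICAM1, a leukocyte adhesion molecule, read 8.11 in the shRNA knockdown and 7.62 in its control, and 10.31 in the siRNA knockdown and 10.20 in its control. TNFAIP2 differed by 0.32 and 0.16, with a second probe set at 0.57 and 0.59, TNFAIP8 by -0.037 and 0.075, and the adaptor gene TRAF1 by -0.47 and 0.23.

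A limma fit over the 4 arrays, with the method as a block, was used to ask whether both knockdowns share an effect. It has 1 residual degree of freedom, from the mismatch of the 2 methods, and moderates each gene's spread towards that of all genes with 2.85 prior degrees of freedom, so its errors do not measure repeated cultures. In limma 0 of the 34 members passed an adjusted p of 0.05, nor did any of all 15082 genes (0%). At an unadjusted p of 0.05, limma gave 2 members, 5.88% of them, beside 2.55% of all genes. IL6 had a mean difference of 1.07 ± 0.28 (SE) with an unadjusted p of 0.0198, and IL1B had -0.58 ± 0.20 with an unadjusted p of 0.0437. Both had an adjusted p of 0.971 in limma. ZEB2, with a mean difference of -2.82 ± 0.18 (SE), did not pass either, at an adjusted p of 0.971 in limma.

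The siRNA control was set against the shRNA control to see how far the cultures differ with ZEB2 in place. Most of these genes read higher in the siRNA control. Of the 34 members, 22 (64.7%) were at least 2-fold higher, against 10.8% of all genes, and NFKB2 alone was at least 2-fold lower, against 4.99%. CCL2 and CCL20 are among the 22 but were kept through the siRNA arrays alone, so their direction here was built in. The members were also chosen with earlier results of these data known, so their excess over all genes is no independent evidence. The median difference was 1.54 for the members and 0.056 for all genes. With the 2 dim members counted too, the median over 36 genes was 1.29. The way of delivery, the control construct and the history of the cells cannot be told apart in this comparison. It shares the shRNA control array with the stable pair, so a low reading there raises both differences.

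**Figure D4:**
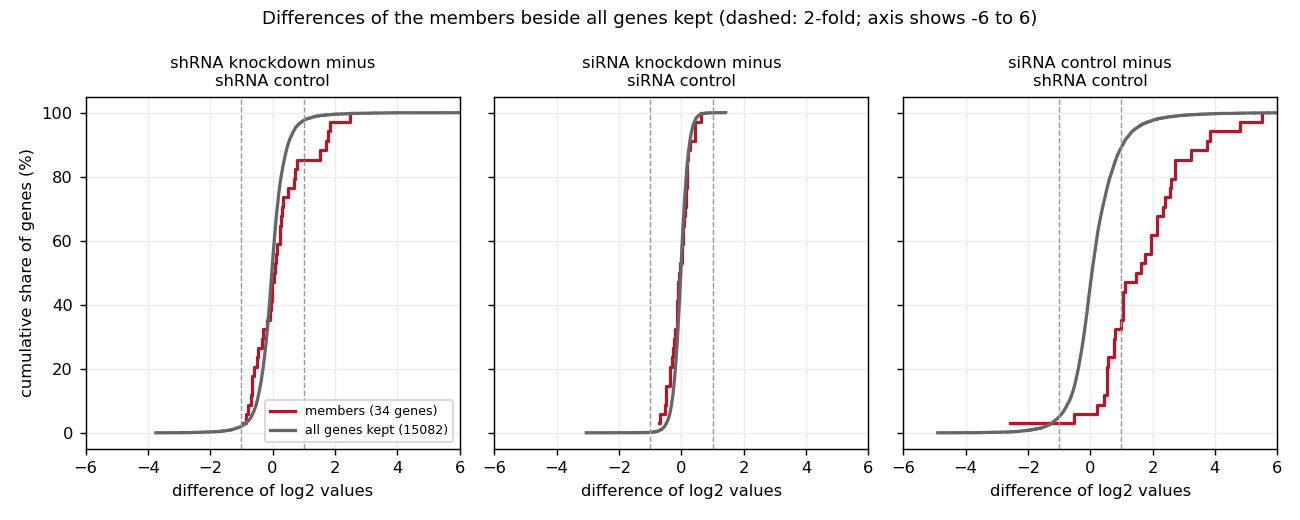
Cumulative share of genes (%) against the difference of log2 values, for the 34 members and all 15082 genes kept, in the stable pair, the transient pair and between the controls; dashed lines mark 2-fold. The curves lie close together in the transient pair and far apart between the controls. In the stable pair they part on both the lower and the upper side. There 20.6% of members and 7.11% of all genes were at least 1.5-fold lower, and 14.7% and 2.39% at least 2-fold higher. Member medians were 0.073 in the stable pair, -0.062 in the transient pair and 1.54 between the controls.

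IL6 had the largest difference of the members, 5.52 or 46.0-fold, the 13th highest of all genes. CXCL1 followed at 4.80, 27.9-fold and the 25th highest. Then came CCL2 at 3.84, PTGS2 at 3.75 and IL1A at 3.23. On the shRNA control array CCL2 (4.15) and PTGS2 (4.52) were under the filter level, which makes these sizes uncertain. A second IL1A probe set, under that level on every array, gave -0.37.

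Feedback and effector genes of NF-kB followed. CXCL8 differed by 2.71, NFKBIA by 2.71, ICAM1 by 2.59, IL1B by 2.58, IL7R by 2.40 and TNFAIP3 by 2.32. All 4 inhibitor and feedback genes were higher, between 1.06 for NFKBIE and 2.71 for NFKBIA. TNFAIP3 was 4.99-fold higher, and its second probe set differed by 2.61. NFKBIA was 6.54-fold higher by its brightest probe set, but its other probe set above the filter level differed by 0.33, and the mean of its probe sets by 1.52. NFKBIZ likewise had 1.77 in the brightest and 0.38 in the second. The remaining members at 2-fold, between 1.04 and 2.14, were IL11, CCL20, CXCL2, REL, NFKBIZ, IL24, CSF1, SOD2, NFKBIE, RELB and IL18. IL32, at 0.97, was just short of 2-fold.

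NFKB2 was the member that ran against the rest, at -2.58 between the controls, or 5.98-fold lower in the siRNA control. Its second probe set differed by -0.39 and the third, dim on every array, by -0.64. NFKB1 differed by -0.51, so the genes of both precursor subunits were below 0, while REL (1.94), RELB (1.05) and RELA (0.57) were above. The second RELA probe set gave -0.92, and the sign for RELA therefore depended on the probe set.

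The arrays of the stable cultures did not overlap with those of the transient ones for most members, an order examined after the values were seen. In 29 of the 34 members (85.3%) both siRNA arrays lay above both shRNA arrays, against 39.2% of all genes. For CCL2 and CCL20, which are among the 29, this order was built in by the filter. NFKB2 was the only member with both siRNA arrays below both shRNA arrays, against 27.5% of all genes. The exceptions were IL11, IL24, IL32 and NFKB1. For IL11, IL24 and IL32 the shRNA knockdown read above both siRNA arrays. The shRNA knockdown lay nearer the mean of the siRNA arrays than its control did for 18 of 34 members (52.9%), against 56.7% of all genes.

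NF-kB and AP-1 sites in other promoters are shown for IL6 and IL11, the members with the largest differences between the controls and in the stable pair, and for the feedback genes NFKBIA and TNFAIP3. The window, strand and source are as for the chemokines. Capitals mark the NF-kB consensus in IL6, NFKBIA and TNFAIP3 and the AP-1 motif TGANTCA in IL11.
IL6 (chr7:22727050-22727159, plus strand): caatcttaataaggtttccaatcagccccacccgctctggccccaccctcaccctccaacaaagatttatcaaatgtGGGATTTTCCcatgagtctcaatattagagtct
IL11 (chr19:55370504-55370613, minus strand): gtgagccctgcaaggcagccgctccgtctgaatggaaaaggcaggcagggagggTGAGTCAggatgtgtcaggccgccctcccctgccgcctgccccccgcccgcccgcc
NFKBIA (chr14:35404790-35404899, minus strand): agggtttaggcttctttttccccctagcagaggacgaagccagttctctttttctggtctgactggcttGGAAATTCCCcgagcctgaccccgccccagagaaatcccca
TNFAIP3 (chr6:137867109-137867218, plus strand): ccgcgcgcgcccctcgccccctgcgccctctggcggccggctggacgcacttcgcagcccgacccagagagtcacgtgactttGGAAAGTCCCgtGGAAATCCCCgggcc

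Promoter windows of 300 bases, from 250 before to 50 after a start, were found for 30 of the 38 genes, some with several starts. IL18, LIF, CSF1, CSF3, CCL2, CCL5, RELB and NFKBIE were not among them. The NF-kB consensus, searched on both strands, was in at least 1 window of 16 of the 30 genes and in 18 of their 44 windows. Of all 35116 windows, 11.3% held it. The members were listed for their ties to NF-kB, so a larger share among them is no independent evidence of such a tie. The ZEB E-box CACCTG, searched on both strands, was in 8 of the 44 windows, against 20.6% of all windows. These 8 belonged to BIRC3, ICAM1, IL32, NFKB2, SOD2, TNFAIP8 and TRAF1. Of the 5 members at 2-fold in the stable pair, IL32 alone held the ZEB E-box. The AP-1 motif was in 4 of the 44 windows, those of IL1A, IL11 and CXCL8, against 7.71% of all windows. No matches of different motifs overlapped in the members' windows. A match describes the letters alone, and the lack of one does not show that a gene has no such site.

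Wider parts of the pathway were read from lists of other genes, also chosen with earlier results of these data known. Of 33 kept genes that carry the signal from receptors to NF-kB, 0 reached 2-fold in either knockdown pair, and 6 were at least 2-fold higher between the controls, with the siRNA control on top. Of 19 kept genes in the list of receptors, which also holds IL7, IL7 alone reached 2-fold in the stable pair and 0 did in the transient pair. Of 33 other NF-kB target genes kept, 1 was higher and 2 lower at 2-fold in the stable pair, and 1 was higher in the transient pair, where the shares of all genes were those given above for each pair. The first was VCAM1, a leukocyte adhesion molecule, at 6.91 in the shRNA knockdown and 3.74 in its control. In the siRNA cultures VCAM1 read 3.83 in the knockdown and 4.16 in the control. It was above the filter level in the shRNA knockdown alone, which makes the size of its difference uncertain. The lower ones were PLAU, which encodes urokinase, at 10.21 in the shRNA knockdown and 11.29 in its control, and its receptor gene PLAUR, at 9.40 in the shRNA knockdown and 10.51 in its control. LTB, which encodes lymphotoxin beta, read 10.31 in the siRNA knockdown and 8.93 in its control. Between the controls 14 of these 33 targets were at least 2-fold higher in the siRNA control and 0 were lower, with a median of 0.73, beside 10.8% of all genes higher and 4.99% lower. In the same comparison 1 gene of the receptor list was higher and 1 lower, 2 of the 9 STAT3 and feedback genes were higher and 0 lower, and 0 of the 4 antagonists were higher and 1, SIGIRR at -1.10, was lower. Of 9 kept STAT3 and feedback genes and of 4 kept antagonists of interleukin-1 and interleukin-18, 0 reached 2-fold in either knockdown pair.

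Genes with several probe sets gave a check on these readings. There were 21 further probe sets that reached the filter level on at least 1 array, for 17 of the members. Those of CCL5 and PTGS2 were under it on both shRNA arrays. In the stable pair 17 of these 21 had the sign of the brightest one, between the controls 16 did, and in the transient pair 13 did. In the transient pair 7 had the opposite sign and 1 CSF1 probe set differed by exactly 0. Between the controls the opposite signs belonged to 2 probe sets of CSF1, at -0.999 and -0.73 beside 1.47, and to 1 each of RELA, TNFAIP2 (-0.85 beside 0.75) and TRAF1. With the mean of all its probe sets CSF1 differed by 0.20 between the controls.

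**Figure D5:**
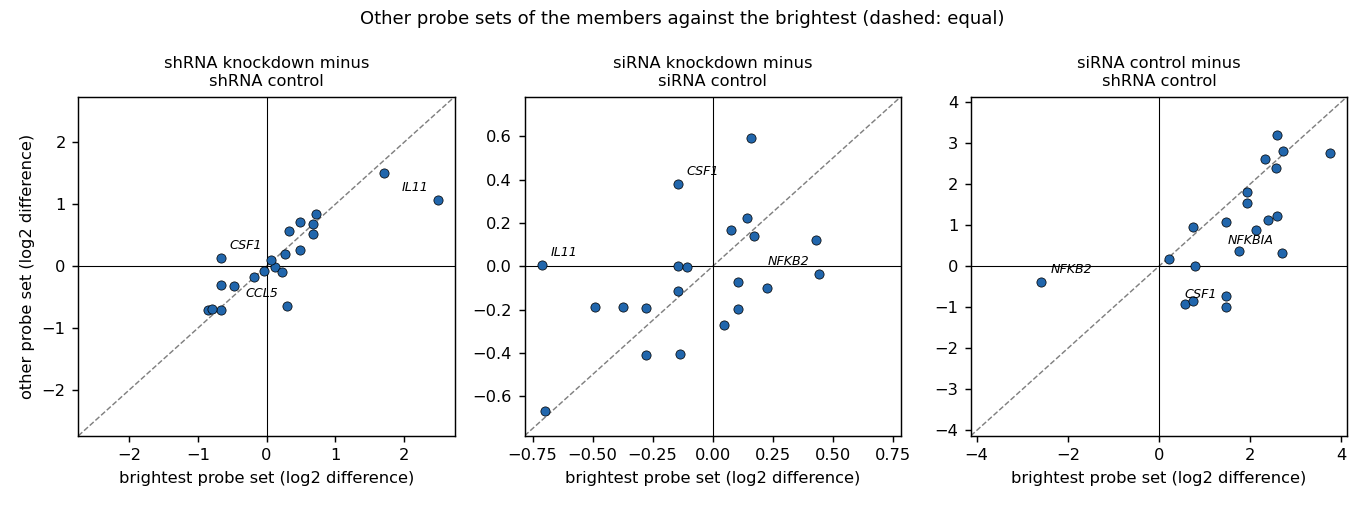
Log2 difference of each of the 21 further member probe sets that reached the filter level on at least 1 array (vertical axis). The horizontal axis gives that of the gene's brightest probe set. Panels show the stable pair, the transient pair and the difference between the controls, and the dashed line marks equal values. Most points share a sign with the brightest probe set (17, 13 and 16 of 21), and IL11, CSF1 and NFKB2 lie far from the line.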

How the data were processed

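Log2 expression values per probe set were deposited by the authors, and the submitters' processing notes name RMA and affy. Their versions are not given in the sources used here. The RMA method subtracts background, forces arrays onto one distribution and combines probes, which hides a change in total RNA and shrinks differences of dim genes. Scanner files were not used, and 0 columns could not be tied to a sample. Groups were taken from the sample titles.

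From these log2 values, differences were taken per gene and counted at 2-fold. Gene symbols came from the platform annotation of the 54675 probe sets, of which 41097 carried 1 symbol. The members and gene lists were chosen with earlier results of these data known. Members at 2-fold in any of the 3 differences are given on every array, the others by differences or range; other list genes are named when at 2-fold in a knockdown pair. Summed marker levels are log2 of the sum of linear values. The genome-wide test was limma 3.58.1 in R 4.3.3 (lmFit, eBayes with an intensity trend, 2-sided, Benjamini-Hochberg over all genes kept), tested on simulated data. As alternatives, probe sets were averaged per gene, those with _x_at names (likely to cross-hybridise) were dropped, and the filter was left out or set at the 60th percentile. Further ones were median centring, cyclic loess, thresholds of 1.5-fold and 3-fold and, for limma, a fit without the block, without the trend or with robust moderation. A value with no test counted as moved when it shifted by more than 0.235, the standard deviation over all genes of the siRNA pair. Promoter sequences were from RefSeq, GRCh38.p14, and plots used Python 3.11.15 and matplotlib 3.10.9.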

Additional observations from a re-analysis of the deposited data

Results flagged for a closer look

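IL11 was the only member that differed by at least 1.5-fold in opposite directions, at 2.49 in the stable (shRNA) pair and -0.71 in the transient pair. With 1 array per group the gap between the pairs could not be tested. Its other probe set differed by 1.06 in the stable pair and 0.0033 in the transient pair, and the mean of both gave 1.78 and -0.35, so the opposite direction was seen in the brighter probe set alone.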

How the results depend on the processing

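Lowering the threshold to 1.5-fold gave 8 members higher and 7 lower in the stable pair, and 1 higher and 2 lower in the transient pair. At 3-fold, 4 members were higher in the stable pair and 17 in the siRNA control over the shRNA control. The count between the controls was 19 to 22, and the other 2-fold counts were the same as reported, under the mean of all probe sets, no cross-hybridising probe sets, no filter, the 60th percentile filter, median centring and cyclic loess. Array medians already lay between 5.34 and 5.37, so median centring could move these counts little. The median difference between the controls was 1.06 with the mean of all probe sets and 1.29 with no filter, against 1.54. Of the 24 members at 2-fold in any difference, none changed sign in a difference at 2-fold under these alternatives where it was still measured. Averaging probe sets moved 15 of their 72 differences by more than 0.235, CSF1 between the controls to 0.20 and CXCL2 to 0.63. CXCL2 was not kept without cross-hybridising probe sets. In limma, 0 members passed an adjusted p of 0.05 under every alternative run. Without the method block the smallest unadjusted p of a member in limma was 0.154, and 0 members were under 0.05. No paired analysis by replicate was possible because each group has 1 array. Depth is unknown for arrays, and dim genes limit the reading of CCL2, CCL20, CXCL5, CXCL6 and PTGS2.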
